A study of Mus musculus with 12 samples.

Results

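The 6 genes Mt1, Mt2, Slc30a1, Slc39a8, Slc39a14 and Mtf1 were followed in lung lymphatic endothelial cells (LECs) of mice exposed to cigarette smoke (CS) or room air (RA). They were taken by symbol, through their Ensembl identifiers in GENCODE M21, from 52636 counted genes, and all 6 were among the 21440 genes with enough reads to be tested. The cells were sorted from Prox1-EGFP reporter mice as live, EGFP-positive and CD31-positive cells that lacked EPCAM and a panel of blood lineage markers, and all 4 groups carried the reporter. Acute exposure lasted 8 weeks and chronic exposure at least 24 weeks, begun at 6 weeks of age in a whole-body chamber. The labels give the age of the acute mice as 8wk and call the chronic mice Aged. An age of 8 weeks cannot hold together with 8 weeks of exposure begun at 6 weeks of age, so the age of the acute mice is uncertain. The acute RA and acute CS groups had 2 libraries each, from females (F) and males (M), and each acute library held cells pooled from 2 to 5 mice. The chronic RA group had 3 libraries (F, M1, M2) and the chronic CS group 5 (F, M1, M2, M3, M4), without pooling of mice, so that time point and pooling cannot be told apart. The shallowest library was chronic CS F, with 18821438 counts, and the deepest acute RA F, with 56998590. Chronic CS F, M1 and M2 held at most 22885446 counts, whereas M3 and M4 held at least 45436986.

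Metallothioneins are small cysteine-rich proteins that bind zinc, copper and cadmium, and their genes are switched on by metal through MTF-1, a zinc-sensing transcription factor encoded by Mtf1. MTF-1 also acts on Slc30a1, which encodes ZnT1, the zinc exporter of the plasma membrane. Slc39a8 and Slc39a14 encode ZIP8 and ZIP14, importers that carry zinc, manganese, iron and cadmium into the cell. Tobacco smoke carries cadmium and other metals, so these genes form a readout of metal handling in cells of the smoke-exposed lung.

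Beside transcripts of LECs, the libraries held transcripts that mark other lung cells. Whether such cells were sorted along was not tested. Prox1 and Flt4, the master transcription factor and the VEGF-C receptor of lymphatic endothelium, were abundant throughout, at 1042 to 2476 and 1159 to 4513 CPM, the count per library scaled to its effective total by TMM factors. The 8 lymphatic markers summed to 13628 and 15421 CPM in acute RA and to 5952 and 9159 CPM in acute CS F and M, with a median log2 fold change of -1.05 over the 8 (7 negative, Lyve1 positive). Marker transcripts of several other lung cells were higher in acute CS. The 8 leukocyte markers summed to 129.4 to 142.9 CPM in acute RA and 1628 to 2445 CPM in acute CS, the 11 alveolar macrophage markers to 794.4 to 882.6 and 2606 to 2842 CPM, and the 12 blood endothelial markers to 5010 to 6141 and 8381 to 9361 CPM. A sum is led by its abundant genes. In the macrophage list Mrc1, a mannose receptor, went from 663.0 and 631.6 CPM in acute RA to 265.3 and 410.9 CPM in acute CS. It passed the test as lower (log2 fold change of -0.94, SE 0.18, adjusted p of 0.0155 by edgeR's quasi-likelihood test). Mrc1 made up most of the acute RA sum. It ran from 559.7 to 663.0 CPM over all RA libraries, where none of the other 10 genes exceeded 86.6 CPM. Which cells gave the Mrc1 reads was not tested. The other 10 had positive fold changes, with a median over the 11 of 4.24, and Chil3 went from 86.6 and 31.2 to 1314 and 1355 CPM. In the blood endothelial list Plvap (2127 and 3053 CPM in RA, 2719 and 3006 CPM in acute CS) and Kdr (2273 and 2522 CPM, then 2128 and 1536 CPM) made up most of the RA sum, whereas the median log2 fold change was 2.40, 8 of the 12 rose by edgeR's test, and Vwf went from 53.1 and 39.0 to 1075 and 1829 CPM. After chronic smoke the blood endothelial median was 0.43, none passed with edgeR, 5 had an unadjusted p under 0.05, and DESeq2 called 4 of the 12. The 11 alveolar epithelial markers reached 6728 CPM in acute CS F and 236.0 CPM in acute CS M, and ran from 260.7 to 501.3 CPM in chronic RA and from 970.4 to 4847 CPM in chronic CS. Fewer LECs and less RNA per LEC cannot be told apart in such bulk libraries.

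The promoters of the metallothioneins and of Slc30a1 are shown because they hold the DNA element through which MTF-1 acts. The metal response element has the core TGCACNC or TGCGCNC, read here on both strands, and the sequences come from RefSeq on GRCm38.p6. Each runs 5′ to 3′ on the plus strand, which is the coding strand of all 3 genes, ends just before the first base of the gene in RefSeq or GENCODE, whichever starts first, and has each core in capitals. The Mt1 stretch is chr8:94178839-94179081, the Mt2 stretch chr8:94172368-94172617 and the Slc30a1 stretch chr1:191906531-191906766.
Mt1: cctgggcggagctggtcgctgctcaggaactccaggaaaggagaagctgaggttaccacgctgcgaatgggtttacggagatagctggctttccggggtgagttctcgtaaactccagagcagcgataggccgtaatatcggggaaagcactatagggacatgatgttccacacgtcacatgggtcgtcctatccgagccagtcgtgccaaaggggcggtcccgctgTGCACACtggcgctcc
Mt2: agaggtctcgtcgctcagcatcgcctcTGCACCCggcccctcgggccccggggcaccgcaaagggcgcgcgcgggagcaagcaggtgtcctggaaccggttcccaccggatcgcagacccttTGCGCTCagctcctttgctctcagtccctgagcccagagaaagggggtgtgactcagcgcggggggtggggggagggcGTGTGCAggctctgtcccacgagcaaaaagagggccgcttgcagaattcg
Slc30a1: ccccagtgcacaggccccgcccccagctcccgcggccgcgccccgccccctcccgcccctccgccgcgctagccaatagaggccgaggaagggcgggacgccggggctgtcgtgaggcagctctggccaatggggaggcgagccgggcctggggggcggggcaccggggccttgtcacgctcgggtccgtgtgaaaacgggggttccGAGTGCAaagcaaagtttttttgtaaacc
These stretches hold 1, 3 and 1 cores. In the full windows of 250 bases before to 50 after the RefSeq start, Mt1 had 3 cores, Mt2 had 4 and Slc30a1 had 2. Of 32851 RefSeq promoters of that size, 25.7% held at least 1 core, 7.11% at least 2, 1.97% at least 3 and 0.517% at least 4. A later annotated start of Mt1 lies 129 bases into the gene, and the bases between both starts held 4 cores, 2 of them inside the window just given, which 0.0791% of promoters matched or exceeded over the same length. The antioxidant response element TGACNNNGC, the site of NRF2, occurred once each in the Mt2 and Slc30a1 windows and not in that of Mt1, against 12.4% of all promoters. The Mtf1 window held neither motif. Slc39a8 had a window for each of its annotated starts, 1 with an antioxidant response element and the other with 1 metal response element core. No promoter was read for Slc39a14. These are matches of letters and were not tested as binding sites.

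Mt1 was the most abundant member per length of transcript in room air. Its mean over the RA libraries was 20.7 FPKM (CPM divided by the kilobases of exon), above 86.7% of the genes tested. Slc39a14 followed at 4.51 FPKM, Mtf1 at 3.39, Slc30a1 at 2.40 and Slc39a8 at 1.51 FPKM, which put these 4 genes between the percentiles 46.7 and 62.5. Mt2 was at 0.467 FPKM, above 30.7% of genes. The brain metallothionein Mt3 reached at most 0.217 CPM and the squamous epithelial Mt4 had no count in any library, so neither was tested.

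Mt1 (ENSMUSG00000031765, chr8:94179082-94180327, plus strand, GRCm38) and Mt2 (ENSMUSG00000031762, chr8:94172664-94173568, plus strand) are neighbours, but only Mt1 has exons that lie in no other gene. None of the 1246 exon bases of Mt1 lies in another gene, and none of the 1036 windows of 50 bases along its longest transcript occurs in another annotated transcript. In contrast, 432 of the 588 exon bases of Mt2 (73.5%) overlap the antisense gene Gm45774. The library kit does not mark strand, so reads from those bases cannot be assigned to either gene. Mt2 rested on 3 to 29 reads a library and Gm45774 stayed at or below 0.26 CPM, so the level of Mt2 is uncertain.

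Acute smoke first. No member passed the 5% limit in edgeR's quasi-likelihood test after adjustment by Benjamini-Hochberg over all genes, against 745 of 21440 genes (3.47%) that did. At an unadjusted p under 0.05, 1 of the 6 members passed, Slc30a1, against 15.7% of all genes, and DESeq2 called 0 of the 6, against 9.15%. With 2 libraries against 2, all CS libraries lay above all RA libraries in 27.4% of genes and below them in 22.5%, so that a lack of overlap is common here. The median log2 fold change of the 6 members was 0.44, beside 0.04 over all genes.

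Mt1 stood at 33.0 CPM in acute RA F and 27.8 CPM in acute RA M, and at 44.1 CPM in acute CS F and 49.8 CPM in acute CS M. Both smoke libraries lay above both controls. The mean was 30.4 ± 3.68 CPM in RA and 47.0 ± 4.05 CPM in CS (SD, n = 2 each), and the fitted log2 fold change was 0.63 (SE 0.33), or 1.54-fold. It did not pass the limit, with an adjusted p of 0.408 by edgeR's quasi-likelihood test. The exact permutation test gave p = 0.333, the smallest value that 2 libraries against 2 allow.

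Slc30a1 (ENSMUSG00000037434, chr1:191906767-191913247, plus strand), the exporter, was at 13.2 and 12 CPM in acute RA F and M and at 26.4 and 20.1 CPM in acute CS F and M. Again the groups did not overlap. The log2 fold change was 0.89 (SE 0.37), or 1.85-fold, with an unadjusted p of 0.0366 and an adjusted p of 0.274 by edgeR's quasi-likelihood test. In its exons, 8.9% of bases overlap an antisense gene that did not exceed 0.591 CPM. Acute CS F, where Slc30a1 was highest, held an alveolar epithelial marker sum of 6728 CPM. Acute CS M, also above both controls, held 236.0 CPM, and the part of such cells was not tested.

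Slc39a8 (ENSMUSG00000053897, chr3:135825279-135888572, plus strand), the ZIP8 importer, was at 14.7 CPM in acute RA F, 5.58 CPM in acute RA M, 30.1 CPM in acute CS F and 9.41 CPM in acute CS M. The groups overlapped, and in each acute group the female library was the higher. This gave a log2 fold change of 0.96 (SE 0.61) with an adjusted p of 0.519 by edgeR's quasi-likelihood test, and it was -0.11 without acute CS F, where a male smoke library is set against a female and a male control. Within each sex the smoke library was the higher, and with sex as a term the log2 fold change was 0.94 (adjusted p of 0.517 by edgeR's quasi-likelihood test). Acute CS F was also the library with the highest epithelial marker sum. Sftpc, the surfactant protein of alveolar type II cells, stood there at 4139 CPM against 127.6 CPM in acute CS M. The part of such cells in the Slc39a8 values was not tested.

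Slc39a14 (ENSMUSG00000022094, chr14:70303469-70351425, minus strand), the ZIP14 importer, had the opposite sign. It was at 48.2 and 39.9 CPM in acute RA F and M and at 37.1 and 33.7 CPM in acute CS F and M, so both smoke libraries lay below both controls. The log2 fold change was -0.32 (SE 0.25), with an adjusted p of 0.647 by edgeR's quasi-likelihood test, and it ran from -0.48 without acute RA M to -0.17 without acute RA F. Mtf1 (ENSMUSG00000028890, chr4:124802104-124849800, plus strand), the metal sensor, ran from 30.0 to 30.6 CPM in acute RA and from 32.4 to 33.1 CPM in acute CS, with a log2 fold change of 0.11 (SE 0.37). Mt2 was at 0.490 and 0.114 CPM in acute RA F and M and at 0.373 and 0.347 CPM in acute CS F and M. Its smoke values fell between the controls, and the log2 fold change was 0.25 (SE 0.98). That value was -0.47 without acute RA M and 1.64 without acute RA F.

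**Figure D1:**
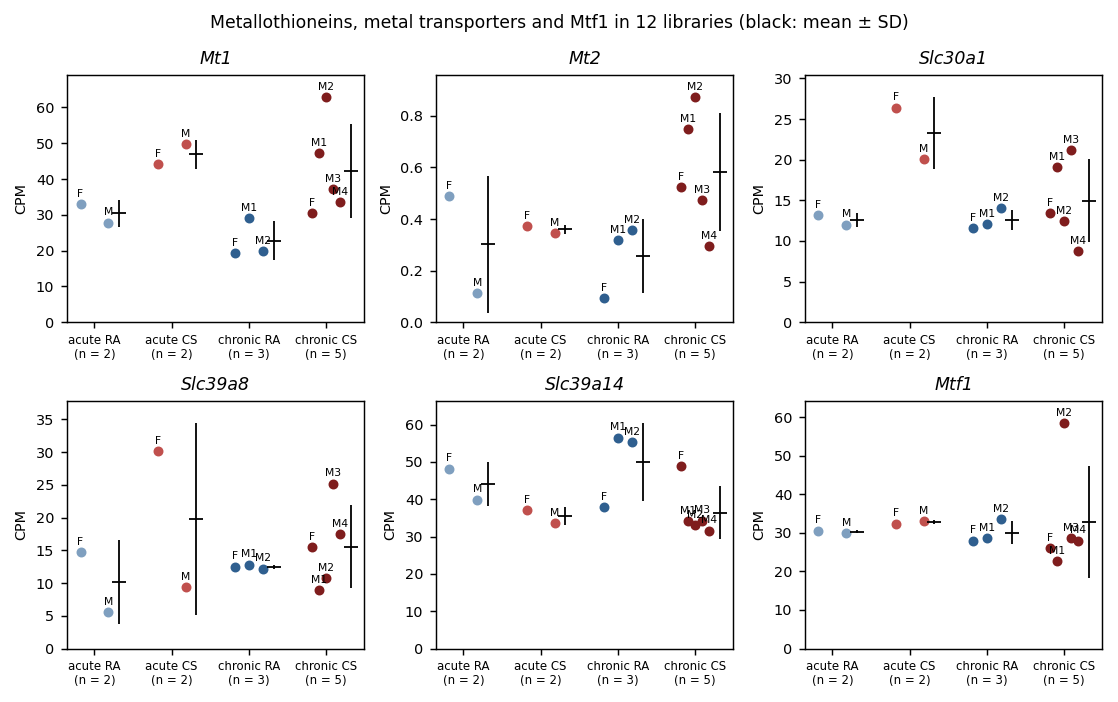
CPM (vertical axes, from 0) of the 6 genes in each library, grouped by exposure; points are libraries with their sex and number, and black bars are means ± SD. Mt1 in CS lies above RA at both time points. At the acute time point Slc30a1 and, by a small margin, Mtf1 do so too, and Slc39a14 lies below. Single chronic CS libraries stand apart for Slc39a14 (F, 48.9 CPM) and Mtf1 (M2, 58.4 CPM).

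After chronic smoke the Mt1 values again lay above those of the controls. Mt1 was at 19.3, 29.1 and 19.9 CPM in chronic RA F, M1 and M2. In chronic CS it was at 30.5 CPM in F, 47.3 CPM in M1, 62.9 CPM in M2, 37.1 CPM in M3 and 33.5 CPM in M4. All 5 smoke libraries lay above all 3 controls, with the narrowest gap between chronic RA M1 and chronic CS F. The mean was 22.8 ± 5.51 CPM in RA (SD, n = 3) and 42.3 ± 13.2 CPM in CS (SD, n = 5). The fit gave a log2 fold change of 0.89 (SE 0.25), or 1.85-fold, with an unadjusted p of 0.00415 and an adjusted p of 0.299 by edgeR's quasi-likelihood test. DESeq2 gave a log2 fold change of 0.93 and an adjusted p of 0.0204, so the call on Mt1 depends on the tool. The exact permutation test on Mt1 alone gave p = 0.0357, the smallest that 5 libraries against 3 allow.

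These values stand beside those of all genes. With edgeR 0 of the 6 members and 0 of 21440 genes (0.0%) passed the adjusted limit in the chronic comparison, and 2341 genes (10.9%) had an unadjusted p under 0.05, as did 2 of the 6 members, Mt1 and Slc39a14. DESeq2 called 524 genes (2.44%), of which Mt1 was the 1 member. All CS libraries lay above all RA libraries in 3.92% of genes and below them in 5.49%. Mt1 was the 1 member of the 6 without overlap here. It was among 357 genes (1.67%) whose CS libraries lay above RA at both time points.

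The chronic fold change of Mt1 was positive in all 17 alternative settings and ran from 0.63 with only chronic CS M3 and M4 to 1.11 without chronic RA M1. Its adjusted p ran from 0.0204 to 0.708 over them. Marker sums of some other cells were also higher in chronic CS. The 7 neutrophil markers summed to 14.1, 13.2 and 5.19 CPM in chronic RA F, M1 and M2 and to 22.9, 111.6, 162.9, 111.1 and 67.7 CPM in chronic CS F, M1, M2, M3 and M4. The 11 mesenchymal markers summed to 145.0 to 172.6 CPM in chronic RA and to 242.4, 396.4, 436.6, 352.1 and 303.5 CPM in the chronic CS libraries in the same order. Both sums were higher in every CS than in any RA library, as Mt1 was, and both ranked the 5 CS libraries as Mt1 did, from M2 at the top through M1, M3 and M4 to F. These lists were singled out after their order was seen, and neither ranked the 3 chronic RA libraries as Mt1 did. The alveolar epithelial sum was also higher in every chronic CS than in any chronic RA library, at 970.4, 1784, 2993, 4847 and 1141 CPM in chronic CS F, M1, M2, M3 and M4, but its order of the CS libraries was another, from M3 through M2, M1 and M4 to F. The leukocyte sums ran from 105.6 to 201.3 CPM in chronic RA and were 124.1, 225.4, 369.5, 415.7 and 227.3 CPM in chronic CS F, M1, M2, M3 and M4, an overlapping range with its top in M3. The part of these cells in the Mt1 values was not tested.

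Mt2 was at 0.094, 0.317 and 0.358 CPM in chronic RA F, M1 and M2, and at 0.525, 0.748, 0.873, 0.472 and 0.294 CPM in chronic CS F, M1, M2, M3 and M4. Only chronic CS M4 fell within the range of the controls. The log2 fold change was 1.17 (SE 0.75), with an adjusted p of 0.590 by edgeR's quasi-likelihood test. The value of chronic RA F was 3 reads.

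Slc30a1 showed no separation at the chronic time point. It was at 11.6, 12.1 and 14.0 CPM in chronic RA F, M1 and M2, and at 13.4, 19.1, 12.4, 21.2 and 8.73 CPM in chronic CS F, M1, M2, M3 and M4. The smoke libraries spread on both sides of the controls. It had a log2 fold change of 0.25 (SE 0.27) with an adjusted p of 0.767 by edgeR's quasi-likelihood test. Single libraries moved it, to 0.10 without chronic CS M3 and to 0.40 without chronic CS M4. Chronic CS M3, with the highest Slc30a1 value here, held an epithelial marker sum of 4847 CPM, whereas M2, at 12.4 CPM, held 2993 CPM. The part of such cells was not tested.

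Slc39a14 was at 38.0, 56.5 and 55.4 CPM in chronic RA F, M1 and M2, and at 48.9, 34.2, 33.1, 34.3 and 31.6 CPM in chronic CS F, M1, M2, M3 and M4. The 4 male smoke libraries lay below all controls, whereas the female smoke library lay above the female control. The log2 fold change was -0.46 (SE 0.18), with an unadjusted p of 0.0277 and an adjusted p of 0.408 by edgeR's quasi-likelihood test. It was negative in all 17 alternative settings, from -0.61 to -0.35.

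Slc39a8 was at 12.5, 12.8 and 12.2 CPM in chronic RA F, M1 and M2, and at 15.5, 8.98, 10.7, 25.2 and 17.5 CPM in chronic CS F, M1, M2, M3 and M4. The 3 controls lay within a narrow range, with smoke libraries on both sides of it. This gave a log2 fold change of 0.32 (SE 0.45), and of 0.08 without chronic CS M3. Chronic CS M3, with the highest Slc39a8 value, also had the highest epithelial marker sum of the chronic libraries, 4847 CPM, whereas M2, with 2993 CPM, had one of the lower Slc39a8 values.

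Mtf1 was at 28.0, 28.7 and 33.5 CPM in chronic RA F, M1 and M2, and at 26.0, 22.6, 58.4, 28.6 and 28.0 CPM in chronic CS F, M1, M2, M3 and M4. A single library, M2, stood far above the others. The log2 fold change was 0.12 (SE 0.27), and -0.19 without that library.

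**Figure D2:**
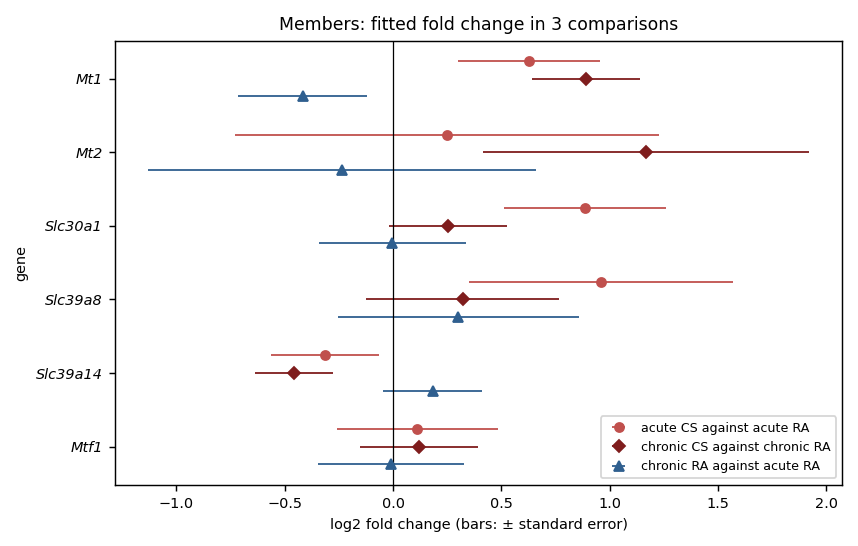
Fitted log2 fold change (horizontal axis, bars ± SE) of the 6 genes in 3 comparisons. The bars of Mt1 stay above 0 after both exposures (0.63 and 0.89), Slc39a14 lies below 0 in both, and none of the values passed the adjusted limit with edgeR.

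In the room air controls, no member differed between time points at the adjusted limit with edgeR, nor did any of the 21440 genes (0.0%). None of the 6 had an unadjusted p under 0.05, against 1504 genes (7.01%), and DESeq2 called 0 of the 6 and 253 genes (1.18%). Mt1 was lower in chronic than in acute RA by a log2 fold change of -0.42 (SE 0.30), or -0.64 without chronic RA M1, with overlapping values. Slc30a1 and Mtf1 had log2 fold changes of 0.00 (SE 0.34) and -0.01 (SE 0.34).

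The smoke effects of both time points were also compared directly. With edgeR 97 genes (0.452%) differed between the acute and the chronic effect, and 0 of the 6 members did. At an unadjusted p under 0.05 it was 11.9% of genes and 0 of the 6, and with DESeq2 4.29% of genes and 0 of the 6. The acute minus the chronic effect was -0.26 (SE 0.41) for Mt1, 0.63 (SE 0.46) for Slc30a1, 0.64 (SE 0.75) for Slc39a8 and 0.14 (SE 0.31) for Slc39a14 on the log2 scale. The value of Mt1 was -0.51 without chronic RA M1 and -0.08 without chronic CS M2. Those of Slc39a8 and Slc39a14 turned sign, to -0.43 without acute CS F and to -0.029 without acute RA M. That Slc30a1 separated the groups at 1 time point and Mt1 at both was therefore not shown to be a difference between the time points.

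The members were not alike in their course over the 12 libraries. Likeness was measured as the root mean square difference of log2 CPM, each gene centred on its own mean, against 9844 genes of at least 10 CPM on average. The gene nearest to Mt1 was Herpud1, a component of endoplasmic reticulum-associated protein degradation, at 0.15, followed by Nmt2 at 0.21 and Atxn1 at 0.24. Mtf1 was at rank 806 from Mt1, Slc30a1 at 1378, Slc39a14 at 7136 and Slc39a8 at 8087. Mt2, below that level, was at a difference of 0.55 from Mt1, and seen from Mt2 its neighbour Mt1 was at rank 37 of 9845. The genes nearest to Mt2 were Cep164 at 0.45, CT010467.1 at 0.47 and Vps13c at 0.48. Nearest to Slc30a1 were Adipor2, an adiponectin receptor, at 0.21, Smurf2 at 0.26 and Lifr, the receptor of leukemia inhibitory factor, at 0.26.

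Herpud1 was at 177.1 and 130.8 CPM in acute RA F and M and at 218.6 and 236.3 CPM in acute CS F and M. In chronic RA F, M1 and M2 it was at 116.0, 129.7 and 118.1 CPM, and in chronic CS F, M1, M2, M3 and M4 at 153.5, 247.9, 268.1, 186.5 and 183.1 CPM. Herpud1 was picked as the gene nearest to Mt1 in these same libraries, so what it shares with Mt1 comes with that choice. Like Mt1, it was higher in every CS library than in any RA library of its time point, as 1.67% of all genes were. Its log2 fold change was 0.56 (SE 0.24) after acute and 0.78 (SE 0.18) after chronic smoke, with adjusted p of 0.290 and 0.253 by edgeR's quasi-likelihood test, and the acute value was 0.33 without acute RA M. DESeq2 called its chronic change, at an adjusted p of 0.00354. Herpud1 (chr8:94386438-94395377) lies 206110 bases from Mt1 on the same chromosome. After this was seen, the other genes near Mt1 were examined. Of 11 genes ranked within 500 kb on either side, Herpud1 was the 1 gene among the 100 nearest to Mt1 in this measure of course over the libraries, and the median rank of the 11 was 4690.

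**Figure D3:**
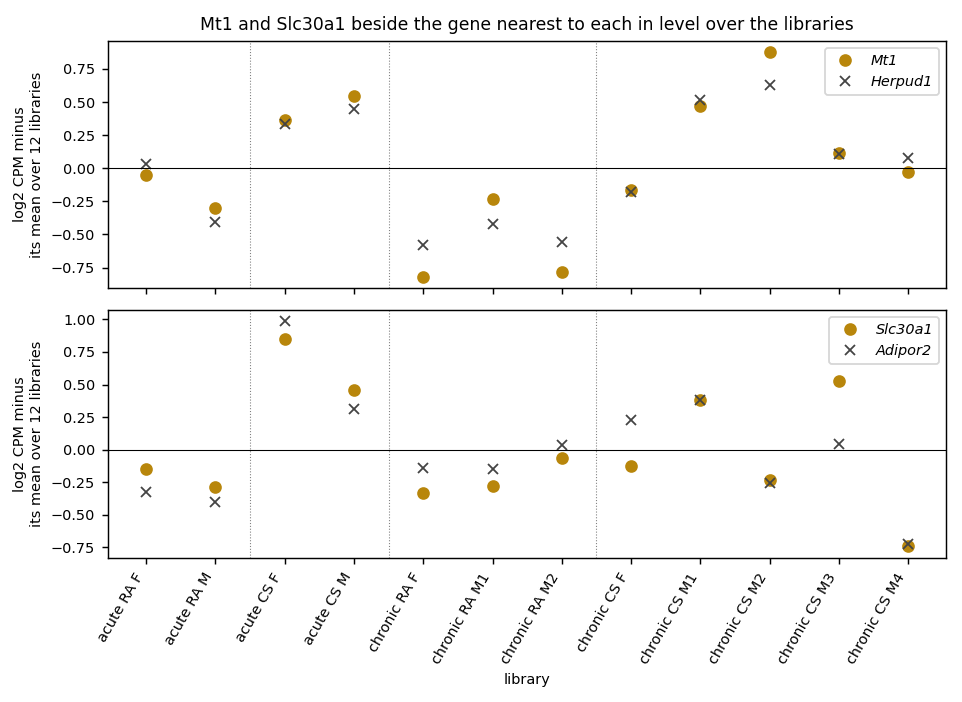
Log2 CPM minus its mean over the 12 libraries (vertical axes) for Mt1 with Herpud1 and for Slc30a1 with Adipor2, by library, with dotted lines between groups. The root mean square difference is 0.15 for Mt1 and Herpud1 and 0.21 for Slc30a1 and Adipor2, and single libraries part by more. Acute CS F is the highest library of the second pair.

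The lists that follow are read against the shares of all genes called. These were 3.47% with edgeR, 15.7% at the unadjusted limit and 9.15% with DESeq2 after acute smoke, and 0.0%, 10.9% and 2.44% after chronic smoke. Among the other zinc exporters of the ZnT family, 5 of 9 were tested and none passed the adjusted limit with edgeR at either time point. After acute smoke 1 had a positive and 4 a negative fold change (median -0.22), and after chronic smoke all 5 were negative (median -0.23). At an unadjusted p under 0.05 these counts were 0 and 1, and DESeq2 called 0. Slc30a5 and Slc30a7, which load zinc into the secretory pathway, had CS values below all RA values at both time points, as did 1.61% of all genes. Slc30a5 was at 94.2 and 98.7 CPM in acute RA and 85.9 and 86.4 CPM in acute CS, and ran from 96.1 to 105.8 CPM in chronic RA and from 67.2 to 93.1 CPM in chronic CS. Its log2 fold changes were -0.16 (SE 0.18) and -0.31 (SE 0.13). Slc30a7 had log2 fold changes of -0.39 (SE 0.19), or -0.17 without acute CS F and -0.66 without acute CS M, and -0.23 (SE 0.14), and Slc30a4, which fills lysosomes and vesicles with zinc, -0.49 (SE 0.36) and -0.46 (SE 0.26). The exporter of the plasma membrane, Slc30a1, had the sign opposite to these 3 in both comparisons, although none of them passed the test.

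Of the 12 other importers of the ZIP family, all tested, 1 passed the adjusted limit with edgeR after acute smoke, 5 had an unadjusted p under 0.05 (15.7% of all genes did), and DESeq2 called 2, Slc39a2 and Slc39a6 (9.15% of all genes). Slc39a2, which encodes the zinc importer ZIP2, was at 0.0845 and 0.776 CPM in acute RA F and M and at 23.1 and 25.9 CPM in acute CS F and M. Both smoke libraries stood far above every other library, since none of the 8 chronic libraries exceeded 2.54 CPM. The fit gave a log2 fold change of 5.83 (SE 1.12) with an adjusted p of 0.0184 by edgeR's quasi-likelihood test. Over the 11 alternatives the fold change ran from 4.98 to 8.09, and the adjusted p from 2.69e-08 to 0.11, past the limit in 6 of them. It no longer passed in a fit of the acute libraries alone (adjusted p of 0.101) or without acute RA F (0.11), acute RA M (0.0766) or acute CS F (0.0665). Nor did it pass with a block for libraries of the same label. After chronic smoke the log2 fold change was 0.85 (SE 0.70), and the difference between both effects had an adjusted p of 0.107 by edgeR's quasi-likelihood test. Of its exon bases 151 lie in the neighbouring gene Mettl17, which was at 48.1 and 54.3 CPM in acute RA and 40.7 and 41.9 CPM in acute CS. Leukocyte and macrophage markers were higher in both acute CS libraries, as given above. Neutrophil markers summed to 28.6 and 10.6 CPM in acute RA F and M and to 1116 and 21.6 CPM in acute CS F and M, so only the female smoke library lay above both controls. The part of such cells in the Slc39a2 values was not tested.

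The remaining importers gave 7 positive and 5 negative acute fold changes with Slc39a2 included (median 0.05), and 5 positive and 7 negative chronic ones (median -0.11). None passed the limit with edgeR after chronic smoke, 2 had an unadjusted p under 0.05, and DESeq2 called 0. Slc39a6 and Slc39a13 were singled out after their values were seen. Slc39a6, the ZIP6 importer, was at 23.7 and 25.4 CPM in acute RA and 82.0 and 37.6 CPM in acute CS. Its log2 fold change of 1.28 (SE 0.41) was one that edgeR's quasi-likelihood test left at an adjusted p of 0.136 and DESeq2 called. It was 0.62 without acute CS F, and 1.74 without acute CS M, where it passed (adjusted p of 0.0445 by edgeR's quasi-likelihood test). Acute CS F held the highest epithelial and neutrophil sums of the 12 libraries, 6728 and 1116 CPM, and their part was not tested. Slc39a13, the ZIP13 transporter of the secretory pathway, was lower in every CS than in any RA library of its time point (1.61% of all genes were), with log2 fold changes of -0.40 (SE 0.15) and -0.40 (SE 0.11) and adjusted p of 0.217 and 0.299 by edgeR's quasi-likelihood test.

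**Figure D4:**
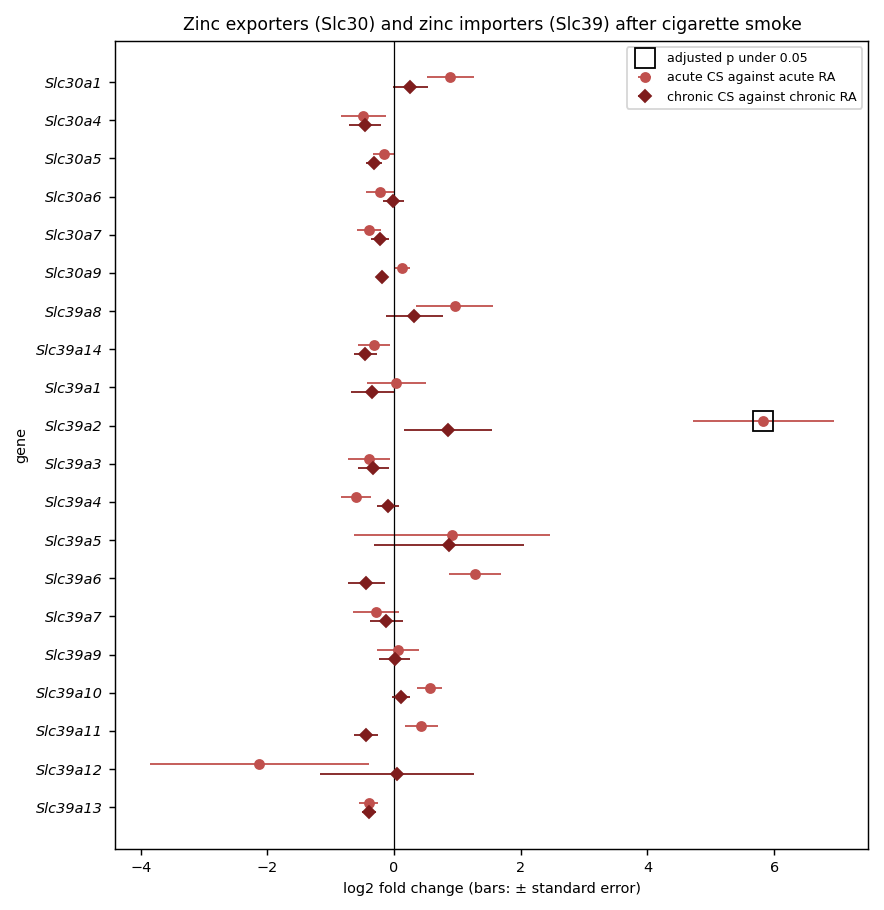
Log2 fold change (horizontal axis, bars ± SE) of the tested zinc exporters and importers after acute and chronic smoke, with a square around values past the adjusted limit. Slc39a2 after acute smoke (5.83) carries the 1 square, and Slc30a1 and Slc39a8 are positive in both comparisons while Slc39a14 is negative in both.

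None of 10 copper handling genes passed the limit with edgeR after acute or chronic smoke, where 3 and 1 had an unadjusted p under 0.05 and DESeq2 called 0 and 1. The called gene was Sod3, the extracellular copper and zinc superoxide dismutase. It was at 37.2 and 41.2 CPM in acute RA and 76.2 and 93.2 CPM in acute CS, ran from 13.3 to 27.1 CPM in chronic RA and was at 27.7, 67.4, 39.0, 64.0 and 43.9 CPM in chronic CS F, M1, M2, M3 and M4. Its log2 fold changes were 1.11 (SE 0.41) and 1.31 (SE 0.31), with adjusted p of 0.200 and 0.253 by edgeR's quasi-likelihood test. The 11 mesenchymal markers summed to 176.1 and 241.6 CPM in acute RA, 725.9 and 1102 CPM in acute CS, 145.0 to 172.6 CPM in chronic RA and 242.4 to 436.6 CPM in chronic CS, and their part was not tested. Slc31a2, a copper transporter of endosomes, had log2 fold changes of -0.52 (SE 0.21) and -0.31 (SE 0.15). The acute value was -0.22 without acute CS F and -0.91 without acute CS M, where it passed with an adjusted p of 0.0365 by edgeR's quasi-likelihood test.

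Of 16 iron and manganese genes 2 rose after acute smoke with edgeR, 5 had an unadjusted p under 0.05, and DESeq2 called 3 higher (Ftl1, Hfe and Slc11a1) and 2 lower (Cp and Heph), beside 3.47%, 15.7% and 9.15% of all genes. Ftl1, the ferritin light chain, went from 297.1 and 302.2 CPM in acute RA to 501.4 and 543.0 CPM in acute CS, with a log2 fold change of 0.80 (SE 0.12) and an adjusted p of 0.00797 by edgeR's quasi-likelihood test. Of its exon bases 34.6% lie in other annotated genes and ferritin light chain has near-identical copies, so its level is uncertain. Hfe, a regulator of iron uptake, went from 54.2 and 59.7 CPM to 123.2 and 100.1 CPM, with a log2 fold change of 0.97 (SE 0.18) and an adjusted p of 0.0136 by edgeR's quasi-likelihood test. After chronic smoke their log2 fold changes were 0.02 (SE 0.09) and -0.10 (SE 0.13), none of the 16 passed the limit with edgeR, 5 had an unadjusted p under 0.05, and DESeq2 called 0. Alveolar macrophages are rich in ferritin, and their markers were higher in acute CS as given above, and their part was not tested. Slc11a1, Cp and Heph are named because DESeq2 called them. Slc11a1, a divalent metal transporter of phagocytes, was at 1.1 and 1.95 CPM in acute RA F and M and at 58.4 and 5.51 CPM in acute CS F and M, a log2 fold change of 4.39 (SE 1.18), or 1.86 without acute CS F and 5.26 without acute CS M. Acute CS F, where it was highest, held the top neutrophil sum, as given above, and the part of such cells was not tested. Cp, ceruloplasmin, and Heph, hephaestin, both copper-dependent ferroxidases, had log2 fold changes of -0.99 (SE 0.31) and -0.84 (SE 0.25). That of Cp was -0.59 without acute CS F and -1.53 without acute CS M. Of the 8 lymphatic markers (median -1.05) 2 passed edgeR's test as lower in the same comparison, Flt4 and Prox1, the latter at 2239 and 2476 CPM in acute RA and 1042 and 1262 CPM in acute CS, and the part of LEC content was not tested. The adjusted p of Slc11a1, Cp and Heph were 0.0725, 0.128 and 0.0999 by edgeR's quasi-likelihood test, and without acute CS M those of Slc11a1 and Cp were 0.0213 and 0.028. In a fit of only the acute libraries neither Ftl1 nor Hfe passed (adjusted p of 0.0962 and 0.0991 by edgeR's quasi-likelihood test). Nor did either pass with a block for libraries of the same label. Without acute RA F or M neither gene passed, at adjusted p of 0.087 and 0.108 for Ftl1 and 0.144 and 0.116 for Hfe, and Hfe did not pass without acute CS F (0.119).

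Genes under other arms of the metal and stress response were read beside the members. Of 5 other genes known to respond to MTF-1, none passed with edgeR after acute or chronic smoke, 1 and 2 had an unadjusted p under 0.05, and DESeq2 called 1 each time. Pgf, placental growth factor, was at 556.6 and 480.7 CPM in acute RA and 177.3 and 332.6 CPM in acute CS, which gave a log2 fold change of -1.02 (SE 0.26) and an adjusted p of 0.0547 by edgeR's quasi-likelihood test. Its sign was opposite to that of Mt1, and its value was -0.64 without acute CS F and -1.55 without acute CS M, where it passed (adjusted p of 0.00535 by the same test). The 8 lymphatic markers had a median log2 fold change of -1.05 in this comparison, and both Pgf and the lymphatic sum were lower in acute CS F than in acute CS M; the part of LEC content in the Pgf values was not tested. Gclc, the catalytic subunit of glutathione synthesis, had an acute log2 fold change of 0.47 (SE 0.24), or 0.23 without acute CS F, and Csrp1 a chronic one of -0.36 (SE 0.10).

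Of 8 NRF2 targets none passed with edgeR at either time point, 1 and 0 had an unadjusted p under 0.05, and DESeq2 called 1 and 0. Gsr, glutathione reductase, was at 71.8 and 84.4 CPM in acute RA and 147.6 and 108.9 CPM in acute CS, with an adjusted p of 0.1 by edgeR's quasi-likelihood test. Slc7a11, the cystine importer, had an acute log2 fold change of 1.26 (SE 0.82), and -0.55 without acute CS F. Hmox1, heme oxygenase 1, had a chronic one of -0.58 (SE 0.29). Of 6 heat shock genes, which share metal as an inducer with the metallothioneins, 5 had negative fold changes at each time point, and none passed with edgeR or DESeq2, with 0 and 2 at an unadjusted p under 0.05. Dnajb1 had log2 fold changes of -0.48 (SE 0.38) and -0.89 (SE 0.27), and Hspb1 of -0.49 (SE 0.50) and -0.96 (SE 0.36). Chronic RA M1 stood apart for some of these genes, with Dnajb1 at 468.6 CPM against 228.2 and 256.6 CPM in chronic RA F and M2 and Hspa1b at 1839 CPM against 163.4 and 189.9 CPM. Without it the chronic value of Dnajb1 was -0.50. The acute values moved with single libraries too, for Dnajb1 from -0.77 without acute CS M to -0.24 without acute CS F, and for Hspb1 from -0.82 without acute RA F to -0.08 without acute RA M.

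Glucocorticoids also induce metallothioneins. Of 8 glucocorticoid targets, Sgk1, a kinase of ion transport, rose after acute smoke (227.2 and 242.1 CPM in RA, 651.8 and 383.4 CPM in CS, log2 fold change 1.14, SE 0.25, or 0.71 without acute CS F) with an adjusted p of 0.0288 by edgeR's quasi-likelihood test. Dusp1, a phosphatase that acts on MAP kinases, fell (4755 and 4372 CPM in RA, 3058 and 3061 CPM in CS, log2 fold change -0.58, SE 0.12) with an adjusted p of 0.0243 by the same test. After acute smoke 4 of the 8 had an unadjusted p under 0.05 and DESeq2 called 3, Per1, Sgk1 and Dusp1. Acute CS F, where Sgk1 was highest, held the top epithelial and neutrophil sums, as given above. The 8 lymphatic markers had a median log2 fold change of -1.05 in this comparison. The part of cell content in the Sgk1 and Dusp1 values was not tested. After chronic smoke 7 of the 8 had positive fold changes (median 0.37) and none passed with edgeR, whereas 4 had an unadjusted p under 0.05 and DESeq2 called 4, namely Tsc22d3, Per1, Zbtb16 and Klf9, beside 10.9% and 2.44% of all genes. Sgk1 did not pass without acute RA F, acute RA M or acute CS F, at adjusted p of 0.216, 0.209 and 0.260, and Dusp1 without any 1 of the 4 acute libraries, at 0.0625 to 0.208. Neither passed in a fit of only the acute libraries, at adjusted p of 0.149 for Sgk1 and 0.153 for Dusp1 by edgeR's quasi-likelihood test. The same held with a block for libraries of the same label, where neither gene passed.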

How the data were processed

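RNA of sorted lung LECs was sequenced from 12 libraries made with the SMART-Seq v4 and Nextera XT kits. The authors trimmed reads with Skewer, aligned them with STAR to GRCm38/mm10 and deposited raw gene counts, after FastQC (0.11.9 per the submitters' processing notes). The annotation release and the strand setting of the counting are not given in the sources used here. Of the 52636 identifiers, 52489 carried a symbol in GENCODE M21. Groups came from the labels. From the counts, CPM with TMM factors and FPKM over the union of exons were computed (Python 3.11.15). All 12 libraries were fitted by group with edgeR 4.0.16 (R 4.3.3), filterByExpr, the quasi-likelihood test and Benjamini-Hochberg adjustment over 21440 genes, limit 0.05. Log2 CPM used a prior count of 2. Exact permutation tests were two-sided, on log2 CPM. The scripts were tested on simulated data.

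The labels name separate libraries, so p-values measure the spread between libraries. That spread was estimated over all groups together, so the acute p-values also rest on the spread among unpooled chronic libraries. Each acute library was a pool of mice, and those of a group differ in sex. A count of 3 is 0.0507 CPM in the deepest and 0.158 CPM in the shallowest library, counting error only. Deviations of same-labelled libraries of CS and RA had correlations of 0.07 (acute) and -0.04 to 0.03 (chronic). With 2 libraries a group, the acute value for unlike labels is -0.07 by construction. These values over all genes cannot show whether libraries were paired, and no pairing was used.

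The members and gene lists were chosen with earlier results of these data known. Named were the 6 members, in each other list the genes past the limit or else those of smallest unadjusted p, the 3 genes nearest to Mt1, Mt2 and Slc30a1, and defining cell markers. Alternatives were DESeq2 1.42.0, library-size scaling, no filter, a fit of only the groups compared, a term for sex, a replicate block, a robust fit, subsets of chronic CS and each library left out.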

Additional observations from a re-analysis of the deposited data

Results flagged for a closer look

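Each of the 6 members was checked in the 5 chronic CS libraries for a library far from the others. The measure was the gap to the nearest value over the range (limit 0.71), and 2 members had such a library. Slc39a14 stood at 48.9 CPM in chronic CS F, with a gap of 0.842 of the range. Mtf1 stood at 58.4 CPM in chronic CS M2, with a gap of 0.832 of the range. Chance marks about 1 check in 20 in this way, and the 6 checks share the same libraries. Groups of 2 and 3 libraries were not checked.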

How the results depend on the processing

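With edgeR, no member passed the adjusted limit in any comparison under any alternative, and DESeq2 called 1 member, Mt1, after chronic smoke. The number of genes called moved far more. After acute smoke (745 genes) it was 1961 with DESeq2, 139 with only the acute groups fitted and 73 with the replicate block, and 3 to 858 with 1 library left out, the lowest without acute RA M, then 79 without acute RA F and 175 without acute CS F. After chronic smoke (0 genes) it was 524 with DESeq2, 10 without a filter on low counts, 1 with chronic CS F, M1 and M2 only, 16 with chronic CS M3 and M4 only, and 0 to 4 with 1 library left out. Between the RA groups (0 genes) it was 253 with DESeq2, 6 without a filter and 42 with only the RA groups fitted. For the difference of both effects (97 genes) it was 920 with DESeq2, 191 without a filter, 21 with sex as a covariate and 0 with the replicate block, and 0 to 263 with 1 library left out. Libraries of a block are known to share sex and a label but not a source. With the block the acute adjusted p were 0.0545 for Slc39a2, 0.0575 for Ftl1, 0.126 for Hfe, 0.112 for Sgk1 and 0.0875 for Dusp1, none under the limit.

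Several fold changes turned sign. With 1 library left out, the acute log2 fold change ran from -0.47 to 1.64 for Mt2, from -0.11 to 1.82 for Slc39a8 and from -0.55 to 2.04 for Slc7a11. The chronic one of Mtf1 ran from -0.19 to 0.24. Between the RA groups it ran from -0.94 to 1.15 for Mt2, from -0.25 to 1.16 for Slc39a8, from -0.099 to 0.066 for Slc30a1 and from -0.11 to 0.03 for Mtf1. The acute minus the chronic effect ran from -1.65 to 0.47 for Mt2, from -0.43 to 1.5 for Slc39a8, from -0.029 to 0.288 for Slc39a14 and from -0.18 to 0.31 for Mtf1. The chronic fold change of Slc39a8 was -0.13 with the replicate block and -0.076 with chronic CS F, M1 and M2 only, and that of Mtf1 was -0.09 with M3 and M4 only. The difference of both effects was -0.008 for Slc39a14 with chronic CS F, M1 and M2 only, and for Mtf1 it was 0.20 with M3 and M4 only and 0.017 with sex as a covariate. Scaling by library size in place of TMM moved the median log2 fold change of all genes from 0.00 to -0.10 between the RA groups and from 0.04 to -0.08 for the difference of both effects, and turned no member's sign. The cause of these moves was not tested. Mt1 rests on 581 to 2298 reads a library and Mt2 on 3 to 29.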
